A study of Mus musculus with 8 samples.

Results

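The 9 genes described here are the effectors of the Hippo pathway and genes that they control: Yap1, Wwtr1 (which encodes TAZ) and Tead1, and the targets Ccn2 (also called Ctgf), Ccn1 (also called Cyr61), Ankrd1, Amotl2, Lats2 and Axl. They were chosen by symbol from knowledge of the pathway, with earlier results of these data known. All 9 were found among the 55401 genes of the tables. RNA-seq compared 4 control dishes of AML12 cells with 4 dishes exposed for 1 h to Opti-ELF-WMF, pulses of a weak magnetic field with a width of 4 ms, frequencies rising from 1 to 8 Hz and a peak of 100 mG. AML12 is a mouse hepatocyte line established from an animal with a human TGF alpha transgene, and all dishes were grown with serum, dexamethasone, insulin, transferrin and selenite. Control dishes came from the same batch of cells and stood in another incubator of the same model with the stimulator off, so exposure and incubator cannot be told apart. The dishes are replicates of culture from 1 batch, and p-values measure the spread between them.

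The Hippo pathway is a kinase cascade that keeps the coactivators YAP and TAZ out of the nucleus. The kinases MST1 and MST2 (encoded by Stk4 and Stk3) with SAV1 activate LATS1 and LATS2 with MOB1, and the LATS kinases phosphorylate YAP and TAZ, which are then held in the cytoplasm or degraded. At low cell density, on a stiff substrate or in serum, YAP and TAZ enter the nucleus, bind TEAD factors and switch on genes for matrix proteins, the cytoskeleton and growth. In the liver the pathway restrains organ size and keeps hepatocytes from taking on traits of bile duct cells. Because YAP and TAZ are regulated mainly as proteins, the RNA of their targets is the usual readout of their activity.

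Most of the promoters at hand held the DNA letters that TEAD factors bind. RefSeq promoter sequences on GRCm38.p6, the 250 bases before the transcription start, were at hand for 7 of the 9 genes, without Ccn2 and Tead1. GGAATG, the core of the TEAD site, was present on either strand in 6 of the 7 (all but Lats2), whereas 12.6% of 32851 mouse promoter windows of the same length held it. The 7 cores are shown with 12 bases on each side, on the strand that reads GGAATG and with the core in capitals, so that the letters around it can be compared between the promoters of the effectors and of the targets.
Yap1, chr9:8004720-8004749, minus strand: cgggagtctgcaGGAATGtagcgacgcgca
Wwtr1, chr3:57576029-57576058, minus strand: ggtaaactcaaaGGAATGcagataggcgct
Ccn1, chr3:145650071-145650100, plus strand: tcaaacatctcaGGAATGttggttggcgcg
Ankrd1 distal, chr19:36120037-36120066, minus strand: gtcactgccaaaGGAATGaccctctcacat
Ankrd1 proximal, chr19:36119950-36119979, minus strand: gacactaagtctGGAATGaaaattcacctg
Amotl2, chr9:102717727-102717756, minus strand: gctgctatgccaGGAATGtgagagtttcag
Axl, chr7:25788949-25788978, minus strand: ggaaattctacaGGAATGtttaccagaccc

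Counted from the RefSeq transcription start, with bases before it negative, Ankrd1 had 2 cores, at -210 to -205 and at -123 to -118. The core of Amotl2 lay nearest to the start, at -65 to -60, and that of Axl the farthest from it among the 7, at -233 to -228. Around 4 of the 7 cores (Yap1, Ccn1, Amotl2 and Axl) the letters were AGGAATGT, which 1.1% of all windows held. No window of the 7 genes held an AP-1 motif (TGANTCA, 6.75% of all windows) or a CArG box, the site of SRF (1.47% of all windows). In GENCODE M21, whose starts differ from those of RefSeq, the whole Ankrd1 window and 136 bases of the Amotl2 window lie in annotated exons of these genes. The Lats2 windows (chr14:57746124-57746373 and chr14:57734419-57734668) lie inside the GENCODE gene. That gene starts at 57758388 on the minus strand, and no window at that start was read. A match describes the letters only, and these genes were picked as known targets, so the share among them is no test.

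The lowest abundance in the set was that of Lats2 and the highest that of Ccn2. Values are TPM, a unit scaled to the same total in each dish, in which reads are divided by gene length, so levels can be compared between genes. Over the 8 dishes, mean TPM stood in the order Ccn2 (672.5), Axl (443.1), Yap1 (81.9), Amotl2 (76.0), Ankrd1 (64.7), Ccn1 (47.9), Tead1 (46.8), Wwtr1 (32.6) and Lats2 (24.1). In this order Yap1 overlapped with Amotl2, and Ccn1 with Tead1, in their ranges over dishes, and the other neighbours were separate in all dishes. Ccn2, a secreted matricellular protein, stood above 98.4% of the 12122 genes that were abundant enough to test, and Axl, a receptor tyrosine kinase that binds GAS6, above 97.5%. Of the summed TPM of the 9 genes, Ccn2 and Axl together held 74.8% ± 0.4 in the control group and 74.97% ± 0.541 in the exposed group (SD, n = 4 each). Yap1 RNA was 2.50 ± 0.06 times as abundant as Wwtr1 RNA in control dishes and 2.53 ± 0.07 times in exposed dishes (SD, n = 4 each).

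A gene was tested if 4 or more of the 8 dishes reached a TPM of 1, and all 9 genes did so in every dish. Differences were tested with limma on log2(TPM + 1), and p-values were adjusted over the 12122 genes. No gene in the table had an adjusted p-value under 0.05 (0.0%), and 1894 genes (15.6%) had an unadjusted limma p under 0.05, 12.0% higher and 3.65% lower after exposure. Of the 9 genes, 1 (Ankrd1) had an unadjusted p under 0.05 and the same 1 had groups that did not overlap, where 9.87% of all tested genes did not overlap (8.01% with all exposed dishes above, 1.86% below). Among the 9, 5 had a positive and 4 a negative difference, and their median log2 fold change was 0.015, against 0.026 for all tested genes. The 95% intervals of the 9 genes lay between -0.152 and 0.148, as differences of log2(TPM + 1).

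**Figure D1:**
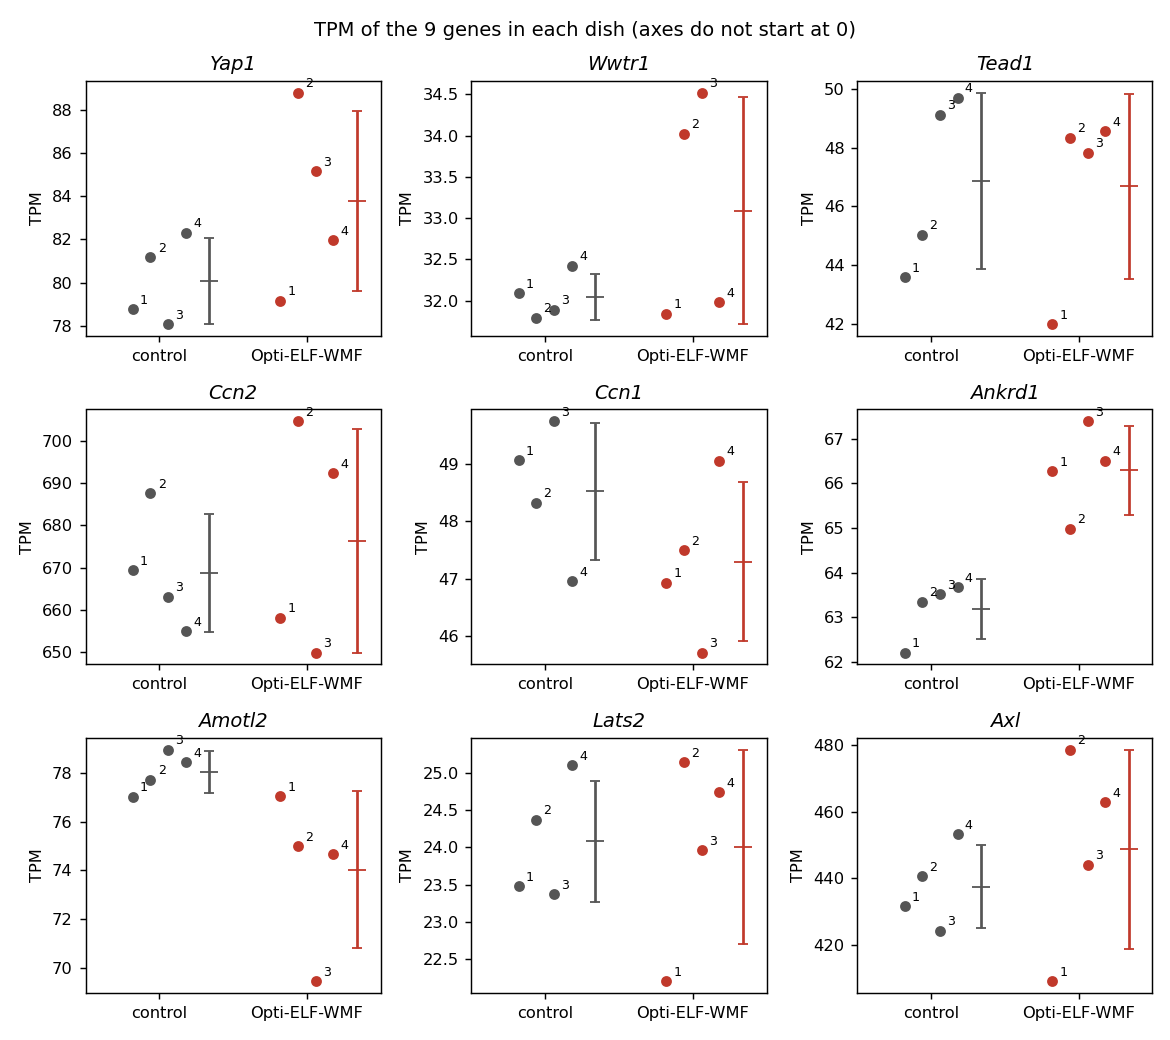
TPM of each of the 9 genes in 4 control and 4 Opti-ELF-WMF dishes; points are dishes numbered by replicate, horizontal ticks are means and bars SD, and axes do not start at 0. Ankrd1 is the gene whose exposed dishes all lie above the control dishes, and the 2 groups overlap in the other 8 genes.

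The means of the 2 coactivators were somewhat higher after exposure, their groups overlapped, and neither difference passed the test. Yap1, on chromosome 9 from 7931999 to 8004596 (GRCm38, GENCODE M21), had TPM values of 78.78, 81.18, 78.07 and 82.3 in control dishes and 79.17, 88.78, 85.16 and 81.95 in exposed dishes. Exposed dishes 2 and 3 lay above all control dishes, and exposed dishes 1 and 4 lay among them. The log2 fold change was 0.06 (SE 0.04, adjusted p = 0.470 by limma, exact permutation p = 0.143, two-sided).

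Wwtr1, on chromosome 3 from 57455649 to 57575910, had values of 32.09, 31.79, 31.89 and 32.42 in control dishes and 31.84, 34.02, 34.52 and 31.98 in exposed dishes. The same exposed dishes, 2 and 3, were the high ones. Its log2 fold change was 0.04 (SE 0.04, adjusted p = 0.612 by limma). The coefficient of variation of its control dishes was 0.867%, against a median of 5.16% over all tested genes of any level.

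Tead1, which encodes the DNA-binding partner of both coactivators (chromosome 7, 112679318 to 112906807), had values of 43.59, 45.04, 49.13 and 49.7 in control dishes and 41.98, 48.34, 47.83 and 48.57 in exposed dishes. The groups overlapped widely, with a log2 fold change of -0.01 (SE 0.06, adjusted p = 0.979 by limma). Of the TPM of the 4 TEAD genes, Tead1 provided 51.9% ± 2.4 in the control and 50.2% ± 1.4 in the exposed group (SD, n = 4 each).

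Among the targets, the 2 secreted matricellular genes, which are used most often as a readout of YAP and TAZ, had overlapping groups and no difference that passed the test. Ccn2, on chromosome 10 from 24595442 to 24598683, had 669.34, 687.63, 663.12 and 655.06 TPM in control dishes and 658.23, 704.62, 649.89 and 692.38 in exposed dishes. The highest and the lowest value both came from exposed dishes. The log2 fold change was 0.02 (95% interval -0.053 to 0.084, adjusted p = 0.857 by limma), and its sign turned under each of the 3 other scalings.

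Ccn1, on chromosome 3 from 145646976 to 145649981, had 49.07, 48.33, 49.75 and 46.96 TPM in control dishes and 46.93, 47.5, 45.71 and 49.06 in exposed dishes. Its mean was lower by 2.53% than in control dishes (log2 fold change -0.04, 95% interval -0.110 to 0.037, adjusted p = 0.650 by limma). Ccn2 was 13.3 to 14.2 times as abundant as Ccn1 in control dishes and 14.0 to 14.8 times in exposed dishes, ranges that overlapped.

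Axl, on chromosome 7 from 25757273 to 25788705, had 431.74, 440.64, 424.3 and 453.31 TPM in control dishes and 409.16, 478.59, 444.09 and 462.78 in exposed dishes. Again the exposed dishes held both extremes, and the log2 fold change was 0.03 (95% interval -0.067 to 0.136, adjusted p = 0.776 by limma).

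Lats2, the kinase that YAP induces and that in turn inhibits YAP (chromosome 14, 57689662 to 57758388), had 23.48, 24.37, 23.37 and 25.1 TPM in control dishes and 22.2, 25.14, 23.96 and 24.74 in exposed dishes. Its difference of -0.005 on the log2 scale was the smallest of the 9 (95% interval -0.109 to 0.099, adjusted p = 0.976 by limma). Of the summed TPM of Lats1 and Lats2, Lats2 provided 48.0% ± 1.6 in the control and 46.6% ± 1.3 in the exposed group (SD, n = 4 each).

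Ankrd1 and Amotl2 had the smallest p-values of the 9 genes, with differences in opposite directions. Neither difference was large for this table, since 42.4% of tested genes had a larger log2 fold change in size than Ankrd1 and 37.4% than Amotl2. Ankrd1, whose ankyrin repeat protein acts in the nucleus and in the muscle sarcomere (chromosome 19, 36111961 to 36120099), had 62.2, 63.35, 63.51 and 63.67 TPM in control dishes and 66.27, 64.99, 67.4 and 66.51 in exposed dishes. All exposed dishes lay above all control dishes, as they did for 8.01% of the tested genes. The mean was 63.2 ± 0.7 (SD, n = 4) in control and 66.3 ± 1.0 (SD, n = 4) in exposed dishes, 4.92% higher, with a log2 fold change of 0.07 (95% interval 0.012 to 0.125, unadjusted p = 0.0230 and adjusted p = 0.232 by limma). The exact permutation p was 0.0286, the smallest that 4 dishes against 4 can give. On the deposited values, Ankrd1 was also among the least variable genes of the table. Its residual SD was 0.0185 on the log2 scale, smaller than in 99.5% of tested genes, against a median of 0.0777 over tested genes of any level.

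Amotl2, which encodes a junctional motin scaffold that binds and restrains YAP and is itself a YAP target (chromosome 9, 102716672 to 102733418), had 77.02, 77.73, 78.96 and 78.44 TPM in control dishes and 77.04, 74.99, 69.45 and 74.66 in exposed dishes. Exposed dishes 2, 3 and 4 lay below all control dishes, and exposed dish 1 lay 0.02 TPM above the lowest control dish. The mean was 78.0 ± 0.8 (SD, n = 4) in control and 74.0 ± 3.2 (SD, n = 4) in exposed dishes, with a log2 fold change of -0.08 (95% interval -0.152 to 0.000, unadjusted p = 0.0503 and adjusted p = 0.321 by limma, exact permutation p = 0.0571). Without exposed dish 3 its difference was -0.05.

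Which of the 2 genes had groups without overlap depended on the scaling. TPM gives every dish the same total, and transcripts of the mitochondrial genome held 8.69% to 9.42% of it in control dishes and 5.99% to 7.69% in exposed dishes. Scaled by the median of ratios, Ankrd1 was 63.3 to 64.2 in control dishes and 62.9 to 66.9 in exposed dishes, which overlap (log2 fold change 0.04, unadjusted p = 0.194 by limma). On that scale Amotl2 was 78.4 to 79.5 in control dishes and 68.8 to 77.8 in exposed dishes, which do not overlap (log2 fold change -0.11, unadjusted p = 0.0148 and adjusted p = 0.302 by limma). A further scaling left out the mitochondrial genes with their chromosome 1 copies, 13.8% to 14.8% of the total in control dishes and 9.61% to 12.01% in exposed dishes. The log2 fold change was then 0.02 for Ankrd1, whose groups overlapped, and -0.12 for Amotl2, whose groups did not (adjusted p = 0.247 by limma). Ccn1 also had an unadjusted limma p under 0.05 on that scale (log2 fold change -0.08, adjusted p = 0.404 by limma). On the deposited values 1894 genes had an unadjusted limma p under 0.05, and 76.6% of them were higher. After upper-quartile scaling they were 1389 genes (42.3% higher), after median-of-ratios scaling 1412 (45.8%) and without the mitochondrial genes 1342 (29.8%). How many tested genes had groups without overlap under these other scalings was not counted.

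**Figure D2:**
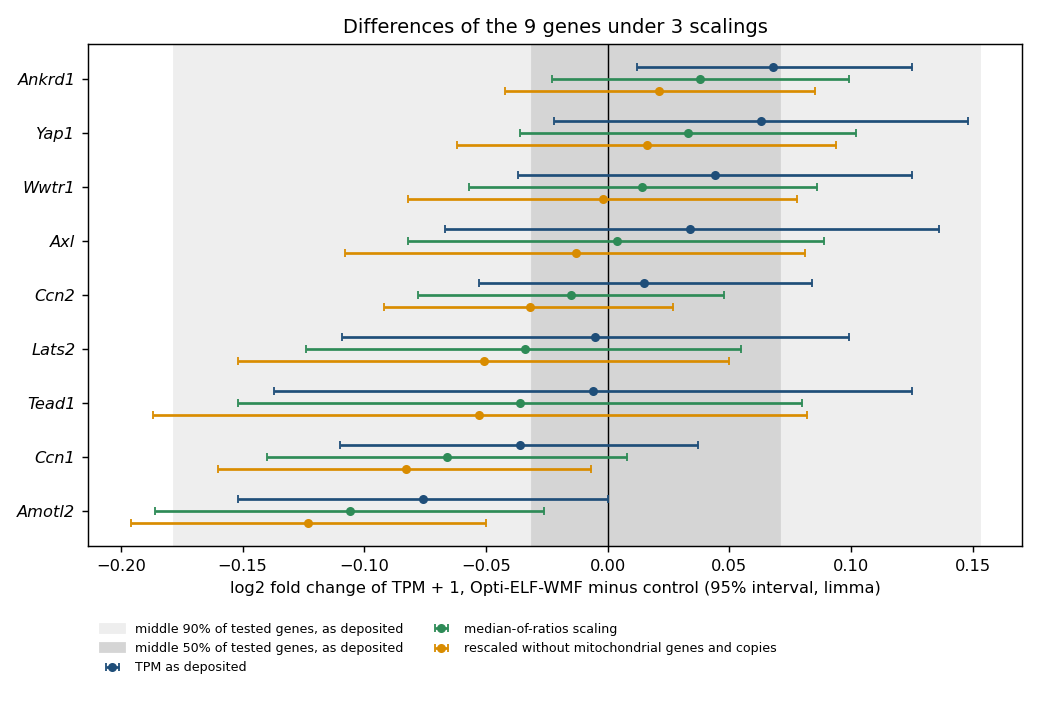
Log2 fold change of TPM + 1 for each of the 9 genes, Opti-ELF-WMF minus control, as points with 95% limma intervals under 3 scalings; grey bands hold the middle 50% (-0.031 to 0.071) and 90% (-0.178 to 0.153) of the tested genes as deposited. The other scalings shift all 9 genes to the left, so that the interval of Ankrd1 takes in 0 and that of Amotl2 lies below it.

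A ratio of 2 genes within a dish does not change with the scaling of the dish. Ankrd1 over Amotl2, a pair chosen after its values were seen, was 0.808, 0.815, 0.804 and 0.812 in control dishes and 0.860, 0.867, 0.971 and 0.891 in exposed dishes. The 4 control ratios were close together and all lay below the exposed ratios. Of the 36 ratios among the 9 genes, this and Lats2 over Axl did not overlap between groups, 2 of 36, where 6.18% of the ratios of all pairs of tested genes did not overlap. The count is near that background. Lats2 over Axl was 0.0544 to 0.0554 in control dishes and 0.0525 to 0.0543 in exposed dishes. Amotl2 differed in this way from many genes, since its ratio to 20.5% of all other tested genes did not overlap, against 7.66% for Ankrd1. The pair was the choice of 1 among 36, and its ratios are a description.

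**Figure D3:**
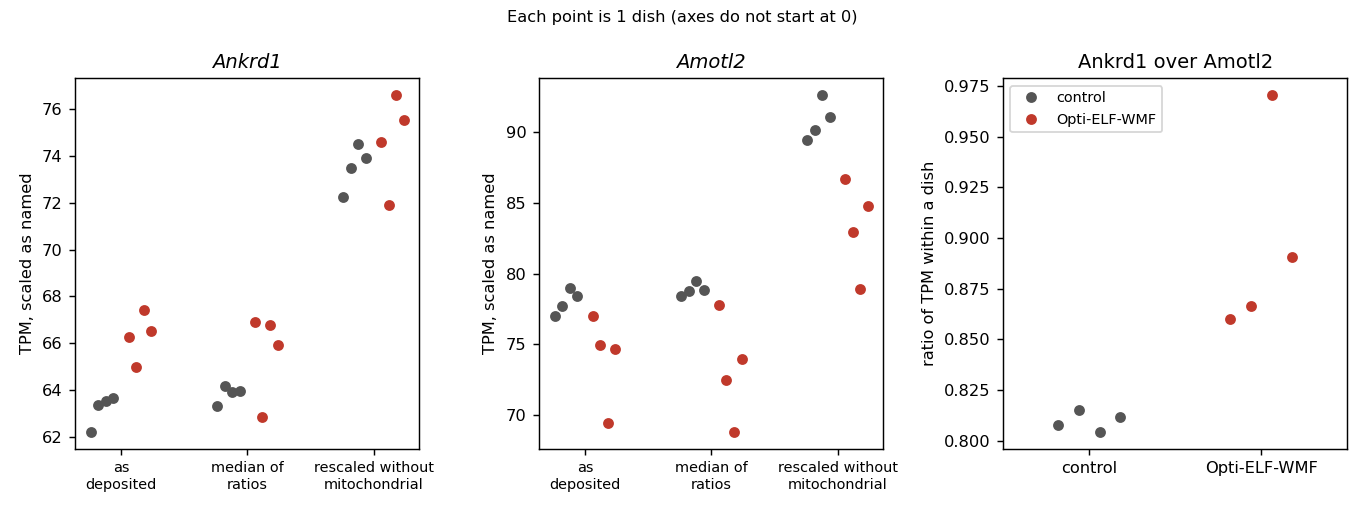
Ankrd1 and Amotl2 in each dish under 3 scalings (left and middle panel, scaled TPM) and their ratio within each dish (right panel), with control dishes in grey and Opti-ELF-WMF dishes in red; axes do not start at 0. The groups separate for Ankrd1 as deposited, for Amotl2 under both other scalings, and for the ratio, which no scaling of a dish can alter.

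Among exposed dishes, replicate 1 was the lowest for Yap1, Wwtr1, Tead1, Lats2 and Axl, 5 of the 9 genes. Without it, 4 of the 9 genes had an unadjusted limma p under 0.05, namely Yap1 (log2 fold change 0.09), Ankrd1 (0.07), Amotl2 (-0.10) and Axl (0.08), with adjusted p-values from 0.234 to 0.303 by limma, and Ankrd1 and Amotl2 were without overlap between groups. In that fit 16.2% of all tested genes had an unadjusted p under 0.05 and 15.9% did not overlap. Without control replicate 1 or without exposed replicate 3, none of the 9 genes had an unadjusted limma p under 0.05. Some of these genes overlap others in GENCODE M21. Lats2 shares 42.4% of its exonic bases with Gm49361 on the same strand, which had a TPM of at most 0.13. Ccn2 shares 23.2% with Gm15270 on the opposite strand, which had at most 14.4, and whether strand was used in counting is not given in the sources used here.

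The other genes of the pathway were taken from fixed lists of 62 genes, of which 54 were tested. On the deposited values, no adjusted limma p was under 0.05 in any list, and 6 genes had an unadjusted p under 0.05. All 6 had higher values in exposed dishes, a share near the 12.0% of all tested genes that were higher at this threshold. After rescaling without mitochondrial genes and copies, Frmd6, Tead2, Igfbp3, Myof and Fhl2 had unadjusted limma p-values from 0.0567 to 0.336. On that scale Taok2, Ajuba and Nuak2, all lower after exposure, had unadjusted limma p-values from 0.0272 to 0.0493. In that fit 1342 of all tested genes were under 0.05, 29.8% of them higher. The median log2 fold change of the 54 genes was 0.025, close to the 0.026 of all tested genes. Across the lists, 42 differences were positive and 12 negative, beside 7720 and 4402 over all tested genes.

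All 10 genes of the core kinase cassette were tested, and on the deposited values 0 had an unadjusted limma p under 0.05. Mob1a, which encodes a coactivator of the LATS kinases, had the smallest unadjusted limma p of this list among higher genes, with 102.5 ± 1.3 TPM in control and 106.9 ± 3.4 in exposed dishes (SD, n = 4 each, adjusted p = 0.352 by limma). Taok2, a kinase that activates MST, had 43.8 ± 1.6 and 41.2 ± 2.9 TPM (SD, n = 4 each, adjusted p = 0.458 by limma). Under the other scalings its unadjusted limma p was 0.0272 to 0.0414 and its log2 fold change -0.134 to -0.117. The adjusted limma p was then 0.379 to 0.406. Stk4 (29.3 TPM in control dishes) was more abundant than Stk3 (12.5 TPM), and Sav1, their scaffold, stood at 88.2 TPM.

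Of 18 upstream regulators and scaffolds, 16 were tested, and 2 had an unadjusted limma p under 0.05. Frmd6, a FERM domain protein upstream of the kinases, had 16.3 ± 0.8 and 17.8 ± 1.0 TPM (SD, n = 4 each, log2 fold change 0.12, unadjusted p = 0.0439 and adjusted p = 0.305 by limma). Control and exposed dishes overlapped, and the unadjusted limma p of Frmd6 was 0.0814 to 0.183 under the other scalings. Ajuba, a LIM protein that inhibits LATS, was the lower gene with the smallest unadjusted p (100.1 ± 1.4 and 98.4 ± 4.2 TPM, SD, n = 4 each, adjusted p = 0.764 by limma). After rescaling without mitochondrial genes and copies, all exposed dishes of Ajuba lay below the control dishes (log2 fold change -0.073, unadjusted p = 0.0444 and adjusted p = 0.439 by limma). Its groups overlapped after upper-quartile and median-of-ratios scaling. The giant cadherins Fat4 and Dchs1 were at or near 0, with Fat4 listed at 0 in all dishes, while Fat1 stood at 46.2 TPM in control dishes. Among the motins, Amotl2 held 70.7% ± 0.8 of the summed TPM of Amot, Amotl1 and Amotl2 in the control and 69.3% ± 1.5 in the exposed group (SD, n = 4 each).

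Tead2 was the one of 5 TEAD factors and cofactors with an unadjusted limma p under 0.05. Its TPM was 14.12, 16.22, 11.83 and 15.04 in control dishes and 18.1, 16.12, 18.73 and 15.33 in exposed dishes. The groups overlapped, with a log2 fold change of 0.24 (SE 0.09, unadjusted p = 0.0279 and adjusted p = 0.251 by limma), and the unadjusted p was between 0.0549 and 0.0604 under the other scalings. Tead3, the least abundant TEAD, had 5.16 ± 0.12 and 4.97 ± 0.26 TPM (SD, n = 4 each, adjusted p = 0.775 by limma). Tead4 stood at 24.0 TPM and Vgll4, which competes with YAP for TEAD, at 47.0 TPM in control dishes. The log2 fold change of Vgll4 was 0.02, and its sign turned under each of the other scalings.

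The 16 further conserved YAP and TAZ targets included 13 tested genes. Of these, 2 were higher with an unadjusted limma p under 0.05, where 12.0% of all tested genes were. In 2 (Igfbp3 and Nt5e) all exposed dishes lay above the control dishes, as in 8.01% of all tested genes. Nt5e was near the limit for testing, with 1.02 TPM in control and 1.22 in exposed dishes (adjusted p = 0.527 by limma). Igfbp3, a secreted binding protein of insulin-like growth factors, had 15.04, 14.01, 13.38 and 13.86 TPM in control dishes and 16.02, 15.17, 15.78 and 15.56 in exposed dishes. The lowest exposed dish lay above the highest control dish, with a log2 fold change of 0.14 (SE 0.05, unadjusted p = 0.0111 and adjusted p = 0.184 by limma). After the other scalings its difference was 0.10 to 0.11, the groups overlapped, and the adjusted limma p was 0.409 or more. Myof, which encodes the membrane repair protein myoferlin, was the most abundant gene of this list. It had 366.5 ± 3.1 TPM in control and 385.4 ± 12.5 in exposed dishes (SD, n = 4 each, log2 fold change 0.07, unadjusted p = 0.0219 and adjusted p = 0.228 by limma). Under the other scalings the log2 fold change of Myof was 0.02 to 0.04 and its unadjusted limma p 0.0740 to 0.336. Its groups did not overlap after upper-quartile and median-of-ratios scaling, and overlapped after rescaling. Tgfb2, a ligand of the TGF beta family, had 2.24 ± 0.21 and 1.97 ± 0.34 TPM (SD, n = 4 each, adjusted p = 0.595 by limma). The list's median log2 fold change was 0.025, with 8 positive and 5 negative differences.

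Several YAP and TAZ targets also answer to serum response factor (SRF) and its actin-regulated coactivators, the MRTF proteins. Of 14 genes of that route, 11 were tested, and Fhl2, a LIM protein of the cytoskeleton and nucleus, was the one with an unadjusted limma p under 0.05. Fhl2 had 84.25, 88.53, 84.35 and 85.71 TPM in control dishes and 92.91, 98.67, 89.1 and 90.54 in exposed dishes. The groups did not overlap, with a log2 fold change of 0.11 (SE 0.04, unadjusted p = 0.0106 and adjusted p = 0.181 by limma), and they overlapped under each of the other scalings (0.07 to 0.08). Srf itself stood at 25.5 ± 1.6 TPM in control and 25.7 ± 2.0 in exposed dishes (SD, n = 4 each), and the immediate early genes Egr1 and Fos at 4.61 and 1.18 TPM in control dishes. Mrtfa had 20.8 ± 1.4 and 20.5 ± 0.9 TPM (SD, n = 4 each, adjusted p = 0.913 by limma). The smooth muscle genes Acta2, Cnn1 and Myl9 were below the limit for testing.

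**Figure D4:**
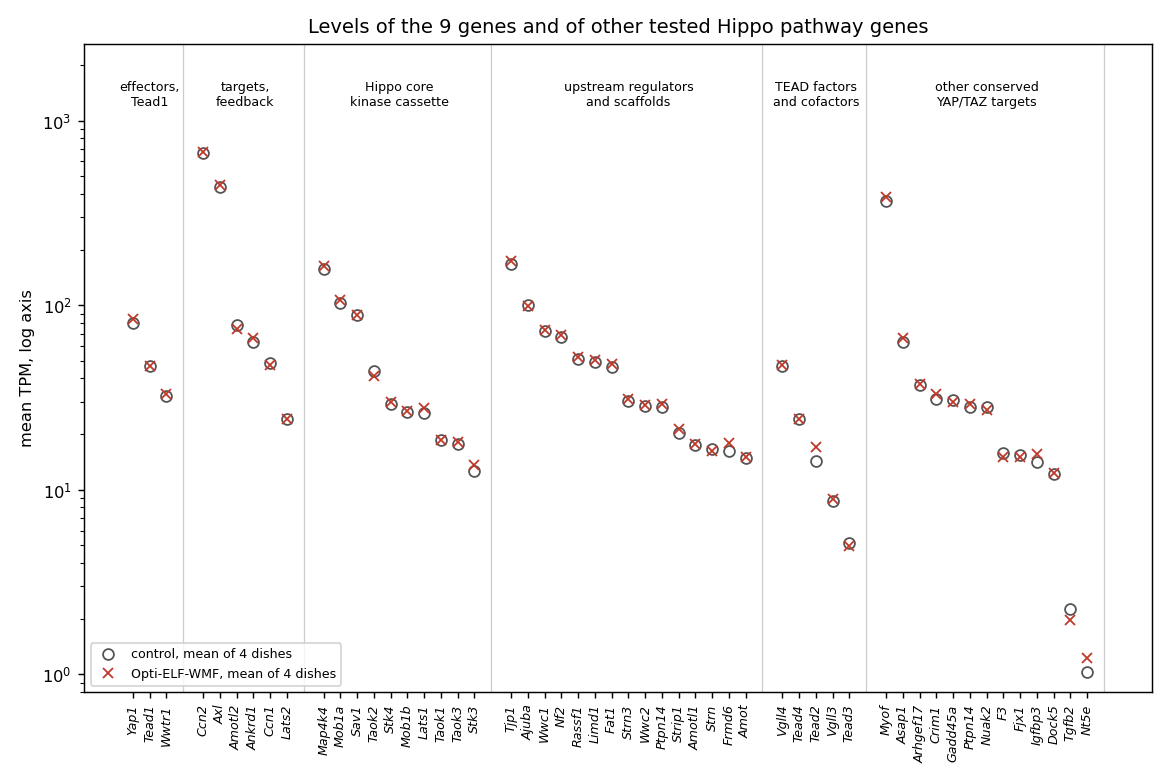
Mean TPM, on a log axis, of the 9 genes and of the other tested genes of the Hippo pathway lists, without the SRF and MRTF list and 1 gene not reported here, in 4 control dishes (circles) and 4 Opti-ELF-WMF dishes (crosses), grouped by role. Ccn2, Axl and Myof are the 3 most abundant genes shown, and circle and cross lie close together for nearly every gene, with Tead2 (14.3 and 17.1 TPM) among the widest gaps.

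The cells carried markers of hepatocytes and of bile duct cells, with little or none of those of other liver cells that express Ccn2 and Axl. All 8 hepatocyte markers were tested, with Alb at 55.1, Hnf4a at 187.4 and Ttr at 358.3 TPM in control dishes. Apoa1 (4.54 TPM) and Afp (1.03 TPM) were low, with mean levels over the 8 dishes above 16.9% and 0.4% of the tested genes. Of the bile duct markers, Krt19 stood at 1153, Sox9 at 30.8 and Epcam at 0.0725 TPM. The 6 markers of stellate cells and fibroblasts summed to at most 1.55 TPM in any dish with Lrat at 0, the 4 endothelial markers to at most 0.09 with Cdh5 at 0, and the 4 macrophage markers to at most 2.24 with Adgre1 and Clec4f at 0. The summed hepatocyte markers were 4815 to 5028 TPM in control dishes and 5113 to 5355 in exposed dishes, without overlap. Single genes had all exposed dishes above the control dishes in 8.01% of those tested. The sum was taken on the deposited values only, and its overlap under the other scalings was not tested. Krt8 (2248 and 2361 TPM) and Krt18 (1905 and 2029 TPM) made up most of this sum, and of the 8 markers 4 had a positive and 4 a negative difference, with a median log2 fold change of 0.006. Alb was 55.1 TPM in control and 49.7 TPM in exposed dishes (log2 fold change -0.15, adjusted p = 0.210 by limma). Their part in the results was not tested.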

How the data were processed

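The authors sequenced stranded mRNA libraries of 8 dishes and deposited 1 table per dish with a TPM value for each of 55401 genes, a unit scaled to a fixed total that keeps no read depth, so the counting error is unknown and no interval from counts is given. The submitters' processing notes name Trimmomatic 0.39, STAR 2.7.4a, RSEM 1.3.3 and mm10, and the annotation is not given in the sources used here. The 12122 genes that reached a TPM of 1 in 4 or more dishes were compared with limma 3.58.1 (eBayes with a trend, R 4.3.3) on log2(TPM + 1), with Benjamini-Hochberg adjustment over all of them. For single genes the 70 ways to assign the dishes gave an exact permutation test (two-sided). The fit was repeated with other pseudocounts, filters and scalings, with a replicate block and without each dish. Positions are from GENCODE M21 on GRCm38, which matched 55141 identifiers. Nuclear copies were chromosome 1 genes with a transcript at least 95% identical to a mitochondrial one over at least 80% of its length (7 genes). Named genes were the 9 genes and, from each list, up to 3 genes per direction by smallest p-value. Other genes, given for their level, were chosen after values were seen. For Tead1 and Axl, which varied most over the dishes, the 3 genes with the most similar deviations were named. The members and lists were chosen with earlier results of these data known. A gene of the upstream list is counted but not reported here by name.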

Additional observations from a re-analysis of the deposited data

Results flagged for a closer look

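Dixon's criterion, applied to the 18 groups of 4 dishes that the 9 genes give, marked 1 group. Opti-ELF-WMF replicate 1 had a Tead1 level of 41.98 TPM, and the other exposed dishes had 47.83 to 48.57. Chance gives about 0.9 such groups among 18.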

How the results depend on the processing

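TPM keeps no depth, so its precision cannot be separated by gene, and changes of a few percent rest on 4 dishes per condition. Over all tested genes, replicate numbers did not pair the dishes (correlations of same-numbered deviations across genes from -0.042 to 0.026). With the replicate block 0 genes had an adjusted p-value under 0.05. Among the 9 genes, the block lowered the SE of Tead1 (0.059 to 0.037), Axl (0.045 to 0.035), Yap1, Ccn2 and Lats2. It raised the SE of Wwtr1, Ccn1, Ankrd1 and Amotl2. With the block, which of the 9 genes had an unadjusted p under 0.05 did not change (Ankrd1). Of the genes taken from the lists, Tead2 moved above that threshold (adjusted p = 0.342 by limma) and Tjp1 below it (adjusted p = 0.314 by limma). An adjusted p-value under 0.05 was reached by 1 gene, none of the 9, under each of upper-quartile scaling, scaling by the median of ratios, rescaling that left out mitochondrial genes and copies, and the stricter filter that asked each dish to reach a TPM of 1. The median change of all tested genes, 0.026 as deposited, was -0.0053, -0.0023 and -0.018 under the 3 scalings in that order. Ccn2 turned to -0.018, -0.015 and -0.032, Vgll3 to -0.0112, -0.0082 and -0.024, and Vgll4 to -0.0161, -0.0129 and -0.0298, and rescaling also turned Wwtr1 (-0.0023) and Axl (-0.013). Rescaling moved the median of the core kinase cassette to -0.0209, of the upstream regulators to -0.0083, of the TEAD factors to -0.030, of the other targets to -0.020 and of the SRF targets to -0.0048, by its own construction. The core kinase, TEAD and other-target medians were also below 0 under upper-quartile scaling (-0.0075, -0.0161 and -0.0066) and under the median of ratios (-0.0044, -0.0129 and -0.0036). The number of the 9 genes with an unadjusted p under 0.05 was 2 without a filter on low values (Ankrd1 and Amotl2). After rescaling it was 2 (Ccn1 and Amotl2). In these fits 2565 and 1342 genes were under that threshold. The fit without a filter took in every gene above 0 in any dish, and 20114 were above 0 in exposed replicate 2 alone. Its 2565 genes are therefore no share of the 12122.

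With each dish left out in turn, 0 to 2 genes of the table had an adjusted p-value under 0.05. Of the 9 genes, 1 to 2 did not overlap between groups, and 0 to 4 had an unadjusted p under 0.05. In the same fits 1496 to 1963 of the 12122 tested genes had an unadjusted p under 0.05. Their share without overlap was counted only in the fit without exposed replicate 1 (15.9%). The log2 fold change ran from 0.035 to 0.090 for Yap1, 0.024 to 0.062 for Wwtr1, -0.039 to 0.043 for Tead1, -0.0045 to 0.034 for Ccn2, -0.054 to -0.020 for Ccn1, 0.060 to 0.078 for Ankrd1, -0.095 to -0.046 for Amotl2, -0.027 to 0.031 for Lats2 and 0.0024 to 0.078 for Axl. Of the genes taken from the lists, those that turned ran from -0.035 to 0.0162 for Taok1, -0.0428 to 0.0007 for Ajuba, -0.1005 to 0.0208 for Strn, -0.0207 to 0.033 for Vgll4, -0.0548 to 0.0129 for Mrtfa and -0.028 to 0.0168 for Cnn2. The cause was not tested.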

Other observations

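Over the 8 dishes, the genes whose deviations from their own mean of log2(TPM + 1) were nearest to those of Tead1 were Diaph2 (mean absolute difference 0.0202), Gabpb2 (0.0203) and Kdm2a (0.0218), where Tead1 itself deviated by 0.0746 on average. For Axl, with a mean deviation of 0.054, they were Nfib (0.0136), Pxn (0.0143), which encodes the focal adhesion protein paxillin, and Extl3 (0.0154). In a search of 12121 genes over 8 dishes some will lie this near, and the likeness is a description.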
